A study of Mus musculus with 4 samples.

Results

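Macrophages that clear dead cells and take up lipid carry a recognisable set of transcripts, and 9 of these were followed in the infarcted left ventricle of KDM5B-KO and WT mice: Trem2, Csf1r, Cd68, Gpnmb, Ctsd, Ctsk, Apoe, Fabp5 and Lgals3. The members were all non-control probes that carried one of these names, which gave 14 probes among 41174. Of these, 13 passed the filter on dim signal, among 28304 tested probes, and every gene kept at least 1 tested probe, so the 9 genes stood among 15062 tested genes. KDM5B is a histone demethylase, and the KO mice carry a CRISPR/Cas9 deletion in the part of Kdm5b that encodes the JmjC domain, with a frameshift, on a C57BL/6 background. Both groups were 8 to 10-week-old males by the study's account, both had the left anterior descending artery permanently tied off, and RNA of the left ventricle was taken at 7 days. There was no sham-operated array. Each genotype had 2 one-colour Agilent arrays, numbered 2 and 3 in the labels and called WT 2, WT 3, KO 2 and KO 3 here. Whether each array held RNA of 1 mouse or of a pool is not given in the sources used here, so p-values measure only the spread between these arrays, which may be technical in part.

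After infarction, monocyte-derived macrophages fill the scar, engulf dying cardiomyocytes and neutrophils, and have to digest the membranes and lipids they swallow. CSF1R, the receptor for the growth factors CSF1 and IL-34, keeps macrophages alive. TREM2 binds lipids and apoptotic cells and signals through the adaptor TYROBP, and it drives the lipid-associated state in which lysosomal enzymes, lipoproteins and fatty acid binding proteins are made in bulk. Some of these genes are not particular to macrophages: Ctsd is made in most cells, Ctsk also in fibroblasts and osteoclasts, Fabp5 also in endothelial cells, and Apoe in several cell types.

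The stretches of transcript read by 4 of the probes are printed here so that the measured molecule is plain. They stand for 3 of the patterns described below: Lgals3 and Cd68 ran in the order KO 2, WT 2, WT 3, KO 3, Ctsk was the one gene with both KO arrays below both WT arrays, and Apoe had nearly the same value on WT 3 and KO 3. Each probe is 60 bases long and is given 5′ to 3′ in lower case with its interval on build mm9, as annotated in the scanner files. The position of a probe in the exons was not determined here.
Lgals3 probe, chr14:48004398-48005214, plus strand: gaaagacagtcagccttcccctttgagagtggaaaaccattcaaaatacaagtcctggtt
Cd68 probe, chr11:69478314-69478373, minus strand: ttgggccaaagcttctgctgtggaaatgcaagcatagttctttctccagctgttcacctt
Ctsk probe, chr3:95310647-95310891, plus strand: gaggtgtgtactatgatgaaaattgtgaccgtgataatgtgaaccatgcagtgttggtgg
Apoe probe, chr7:20281732-20281791, minus strand: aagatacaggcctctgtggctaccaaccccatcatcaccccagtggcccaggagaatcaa

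RefSeq promoters (GRCm38.p6, from 250 bases before to 50 after the start) were listed for 7 of the 9 genes (not Csf1r or Fabp5), with 9 promoters in all since Apoe has 3. A pair of short motifs were searched in them, CACGTG, the E-box read by the MiT/TFE factors of lysosome biogenesis, and GAGGAA on either strand, the core of ETS sites of the kind bound by PU.1, the myeloid master factor. CACGTG was found in 1 of 9 promoters, that of Ctsd, against 7.15% of the 32851 promoters in the table. GAGGAA was found in 5 of 9 promoters, of Trem2, Cd68, Ctsk and, in 2 of its 3 promoters, Apoe, against 28.3% of all. The 250 bases before the start of Ctsd and of Trem2 are shown. Ctsd was the only gene with CACGTG, and Trem2, with GAGGAA, encodes the receptor that drives the lipid-associated state. Capitals mark CACGTG in Ctsd, present in 2 copies, and TTCCTC, the reverse complement of GAGGAA, in Trem2. A match of letters is a description and no evidence of binding.
Ctsd upstream, chr7:142387828-142388077, minus strand: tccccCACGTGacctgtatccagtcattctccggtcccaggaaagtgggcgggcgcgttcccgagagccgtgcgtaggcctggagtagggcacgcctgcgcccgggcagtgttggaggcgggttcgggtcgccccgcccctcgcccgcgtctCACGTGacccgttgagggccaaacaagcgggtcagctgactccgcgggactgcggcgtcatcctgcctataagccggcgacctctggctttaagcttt
Trem2 upstream, chr17:48346151-48346400, plus strand: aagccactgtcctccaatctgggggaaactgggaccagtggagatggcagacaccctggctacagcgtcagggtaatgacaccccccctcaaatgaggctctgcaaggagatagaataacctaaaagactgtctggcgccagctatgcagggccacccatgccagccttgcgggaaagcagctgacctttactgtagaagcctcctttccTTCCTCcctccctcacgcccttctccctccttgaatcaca

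Levels are given as log2 signal after subtracting the array's own 75th percentile, and every difference is KO minus WT on this log2 scale. A gene with several probes is represented by its brightest tested one, and levels of different genes are not compared, since probes differ in brightness per molecule. The labelled tissue and genotype were checked first. All 12 cardiomyocyte markers and all 14 macrophage and leukocyte markers were well above background on all 4 arrays. On both Kdm5b probes the KO arrays gave less signal than either WT array. The brighter probe differed by -0.996 (SE 0.40) with a limma adjusted p of 0.9999. It gave -0.87 in WT 2 and -2.40 in KO 2, but the gap was smaller at number 3, at -1.81 in WT 3 and -2.26 in KO 3. Neither probe fell to background on KO 2 or KO 3, so the signal was lower in KO but not lost. Whether these probes lie in the deleted stretch was not determined. The array numbers split the sex-linked transcripts although all samples are labelled male: the log2 signal of Xist was 14.13 and 13.24 at number 2 (WT, then KO) but 1.92 and 2.01 at number 3, and Ddx3y, on the Y chromosome, was well above background on the number 3 arrays alone. By these transcripts the number 2 arrays read as female and the number 3 arrays as male, so number and sex cannot be told apart. The comparisons of the members are therefore also given within the number. All arrays lay on 1 slide with each genotype at neighbouring positions, so slide position and genotype cannot be told apart.

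None of the 9 genes differed between KDM5B-KO and WT beyond the spread between arrays. With the thresholds of the methods, a fold over 2 and a corrected p under 0.05, limma called 0 of the 13 member probes and 0 of 28304 probes in all (0%), and at an unadjusted p under 0.05 it picked 0 member probes against 410 of all probes (1.45%). The mean was lower in KO for 7 genes and higher for Ctsd and Fabp5, with a median difference of -0.43 over the 9 genes, beside 0.04 over all tested genes. For all 9 genes the KO arrays lay further apart from each other than the genotype means did, and the direction of the median rested on single arrays: it was 1.23 without KO 2, 0.18 without WT 3 and -2.07 without KO 3. At number 2, KO was lower than WT for 8 of the 9 genes, with a median difference of -1.50, and at number 3 KO was higher for 7 of the 9, with a median of 0.66, while the medians over all genes were 0.04 and 0.03.

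**Figure D1:**
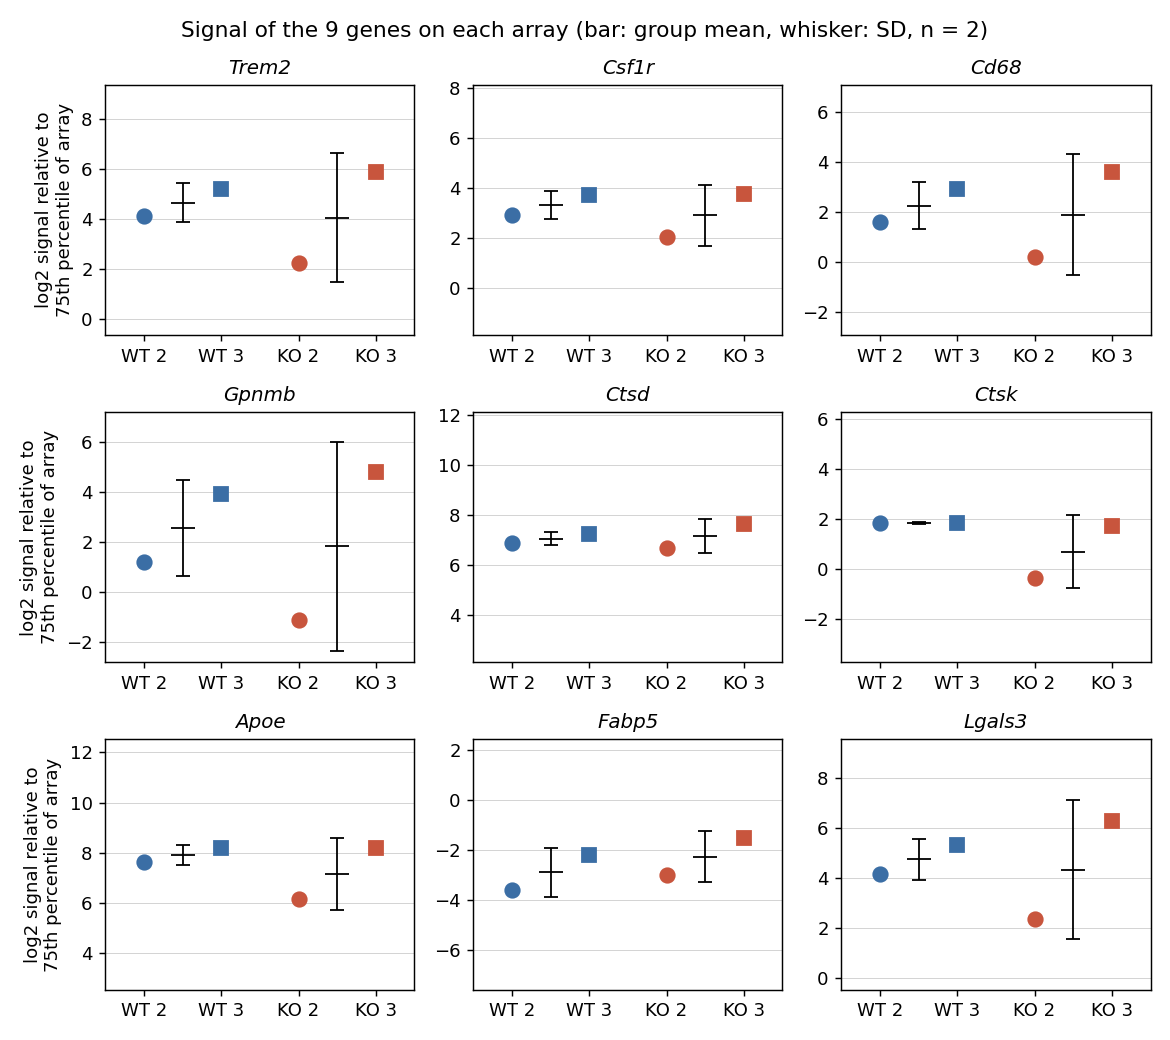
Log2 signal less the array's 75th percentile (y) for each of the 9 genes on WT 2, WT 3, KO 2 and KO 3 (x). Circles are number 2 arrays and squares number 3 arrays, the black bar is the group mean and the whisker the SD of 2 arrays, and every panel spans the same number of log2 units. KO 2 lies lowest and KO 3 highest in 6 of the 9 panels, and the KO whiskers are long because these 2 arrays lie far apart.

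The receptors and CD68 were examined first. Trem2 gave 4.13 in WT 2, 5.20 in WT 3, 2.23 in KO 2 and 5.89 in KO 3. The WT arrays thus lay between the KO arrays, and the WT mean of 4.66 ± 0.76 (SD, n = 2) and the KO mean of 4.06 ± 2.59 (SD, n = 2) overlapped widely. The difference was -0.60 (SE 1.41, 95% interval -4.61 to 3.41), with a limma adjusted p of 0.9999. Within the numbers it was -1.89 at number 2, where KO was 3.71-fold lower, and 0.69 at number 3, where KO was 1.61-fold higher. A dimmer Trem2 probe ran in the same order over the arrays and differed by -0.53 (SE 1.35).

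Csf1r, on chromosome 18, gave 2.93 in WT 2, 3.71 in WT 3, 2.03 in KO 2 and 3.76 in KO 3. KO 2 stood below the other arrays, whereas WT 3 and KO 3 were within 0.05 of each other. The difference was -0.43 (SE 0.72), with -0.90 at number 2 and 0.05 at number 3. All 3 Csf1r probes ran in the same order, and the dimmer ones differed by -0.45 and -0.18. Cd68, a glycoprotein of macrophage endosomes and lysosomes used as a general macrophage marker, gave 1.59 in WT 2, 2.92 in WT 3, 0.19 in KO 2 and 3.62 in KO 3. Its KO arrays again enclosed the WT arrays, 10.8-fold apart, and the difference of -0.35 (SE 1.36) split into -1.40 at number 2 and 0.70 at number 3.

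Among the lysosomal genes, Gpnmb varied most. This transmembrane glycoprotein, a target of the MiT/TFE factors that marks lipid-laden and phagocytic macrophages, gave 1.20 in WT 2, 3.92 in WT 3, -1.12 in KO 2 and 4.80 in KO 3. The arrays spanned a 60.3-fold range, wider than for 99.9% of tested probes, and the WT arrays alone were 6.57-fold apart. The difference of -0.72 had a standard error of 2.39 and a 95% interval of -7.52 to 6.08, so it sets hardly any limit on the effect of genotype. At number 2 KO was 4.99-fold lower, and at number 3 it was 1.84-fold higher. A second, dim Gpnmb probe was well above background on KO 3 alone and was not tested.

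Ctsd, which encodes the aspartic protease cathepsin D, varied least of the 9 genes. It gave 6.88 in WT 2, 7.24 in WT 3, 6.68 in KO 2 and 7.65 in KO 3, a 1.97-fold range. The order of the arrays was that of Trem2 and Gpnmb, but compressed. The difference was 0.11 (SE 0.43), and it turned to -0.17 with quantile normalization and -0.18 in the authors' own values, so its direction is not settled. A second probe differed by 0.12 (SE 0.55) and kept the same order.

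Ctsk, the collagen-degrading cysteine protease cathepsin K, stood apart from the others. It gave 1.82 in WT 2, 1.85 in WT 3, -0.35 in KO 2 and 1.73 in KO 3. Both KO arrays were below both WT arrays, which held for 10.9% of all tested probes, but KO 3 was below WT 3 by only 0.12. The WT mean was 1.83 ± 0.03 (SD, n = 2) and the KO mean 0.69 ± 1.47 (SD, n = 2), a 2.21-fold lower mean (2.35% of tested probes had a mean over 2-fold lower). The difference of -1.14 (SE 0.78, 95% interval -3.38 to 1.09) had a limma adjusted p of 0.9999. KO 2 decided its size, since without that array the difference was -0.11.

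Of the genes that bind lipid or sugar, Apoe encodes the lipoprotein by which macrophages export cholesterol. It gave 7.63 in WT 2, 8.17 in WT 3, 6.13 in KO 2 and 8.17 in KO 3. The number 3 arrays were alike, and KO 2 was 2.84-fold below WT 2. The difference was -0.75 (SE 0.80), made up of -1.50 at number 2 and -0.0030 at number 3. Apoe has 10 spots on each array, of which 9 were used, and their SD on 1 array was between 0.033 and 0.071, which measures the spread of spots alone and not that between samples.

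Fabp5, a carrier of fatty acids in the cytosol, gave -3.61 in WT 2, -2.20 in WT 3, -3.00 in KO 2 and -1.54 in KO 3. It was the only member higher in KO at both numbers, by 0.60 at number 2 and 0.66 at number 3, yet the groups overlapped, because the numbers were further apart than the genotypes. The difference was 0.63 (SE 0.77, 95% interval -1.55 to 2.82), a spread that includes the gap between the numbers. Its probe was dim but well above background on every array. Lgals3, galectin-3, a sugar-binding lectin secreted in quantity by phagocytic macrophages, gave 4.16 in WT 2, 5.33 in WT 3, 2.38 in KO 2 and 6.29 in KO 3. The KO arrays were 15.0-fold apart and enclosed the WT arrays. Its difference was -0.41 (SE 1.50), with -1.78 at number 2 and 0.96 at number 3.

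**Figure D2:**
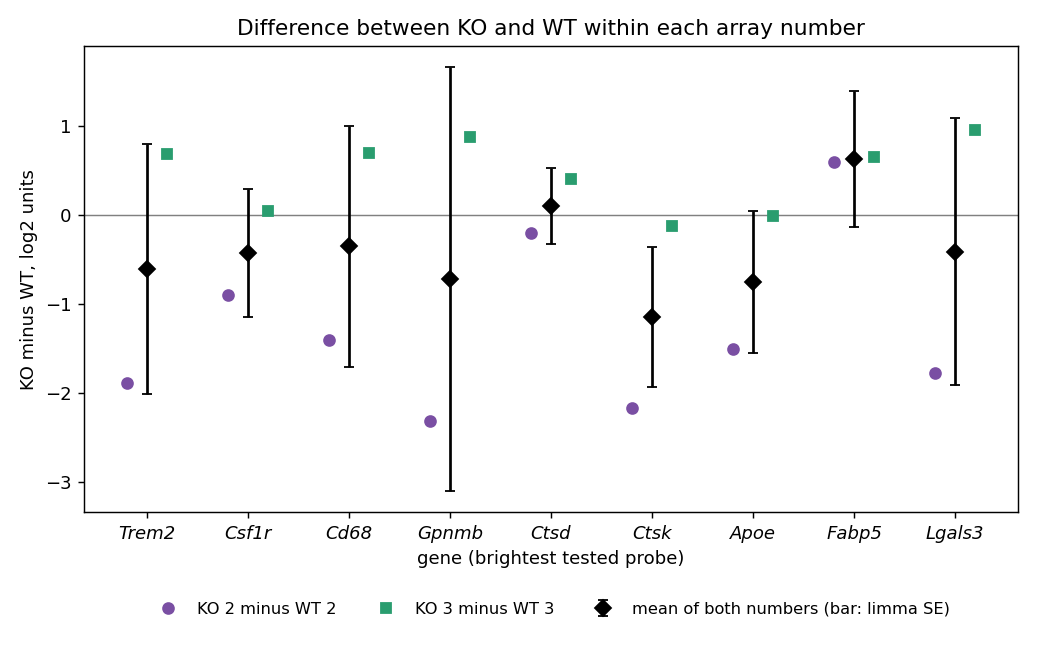
Difference KO minus WT in log2 units (y) for each of the 9 genes (x), at number 2 (circles), at number 3 (squares) and as the mean of both with the standard error from limma (diamonds and bars). The circles lie below 0 for 8 genes and the squares above 0 for 7, and Fabp5 alone has both above 0.

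Counted over the members, KO 2 was over 2-fold below WT 2 for 6 of the 9 genes, against 8.84% of tested probes, and for none was it over 2-fold higher (6.19%). At number 3, 0 of 9 genes were over 2-fold apart in either direction (1.78% of probes were lower by this much and 2.23% higher). KO was lower at number 2 and higher at number 3 for 6 of the 9 genes (27.2% of probes). The same 6 genes, Trem2, Csf1r, Cd68, Gpnmb, Ctsd and Lgals3, ran from low to high as KO 2, WT 2, WT 3, KO 3 (18.2% of probes), and so did 10 of the 13 tested member probes. Probes of 1 gene read the same RNA and are no replicates.

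Within each genotype the number 3 array was higher for all 9 genes. In KO the number 3 array was over 2-fold above the number 2 array for 8 of the 9 genes, against 14.0% of tested probes, with Ctsd the exception. In WT the same held for 5 of the 9 genes, Trem2, Cd68, Gpnmb, Fabp5 and Lgals3, against 1.88% of tested probes. The WT pair thus differed in the direction of the KO pair but less: WT 3 was above WT 2 by 1.08 for Trem2, 2.72 for Gpnmb, 1.34 for Cd68, 1.40 for Fabp5 and 1.17 for Lgals3, while KO 3 was above KO 2 by 3.66, 5.91, 3.43, 1.46 and 3.91 for these genes in that order. Ctsk was flat in WT, with a gap of 0.04, and 2.08 apart in KO. With 1 array for each number in each genotype, this gap was not tested, and it cannot be told apart from a difference of sex.

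The genes around TREM2 took its signs at both numbers, as did the 14 macrophage and leukocyte markers described below. Of the 8 genes listed for TREM2 signalling, limma called 0 in either direction. All 8 were lower in KO at number 2 and higher at number 3 (27.2% of all tested probes). Their median differences there were -1.23 and 0.23. Their overall median of -0.43 was -1.42 without KO 3, -0.17 without WT 3 and 0.43 without KO 2. Tyrobp, the adaptor that TREM2 signals through, gave 4.86 in WT 2, 5.62 in WT 3, 3.44 in KO 2 and 5.71 in KO 3. Syk, the kinase recruited by TYROBP, had the highest difference of the list, -0.03 (SE 0.48), and Trem1, a relative of Trem2 on neutrophils and monocytes, had the lowest, -1.07 (SE 0.75). Trem1 did not share the gap within WT, since WT 3 was below WT 2 by a difference of -1.83.

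In the CSF1 axis, 6 of the 7 genes were lower in KO at number 2 and higher at number 3, and the same 6 ran in the order KO 2, WT 2, WT 3, KO 3. The ligand Csf1 was the exception and gave 2.30 in WT 2, 2.66 in WT 3, 2.56 in KO 2 and 2.60 in KO 3, a 1.28-fold range. Il34, the other ligand of CSF1R, kept the order over a 1.79-fold range and differed by 0.10 (SE 0.43), the highest difference of the list. Spi1, which encodes PU.1, gave -3.25 in WT 2, -2.63 in WT 3, -4.92 in KO 2 and -2.08 in KO 3 and so ran like the receptor. Runx1, a blood cell transcription factor, had the lowest difference, -0.71 (SE 1.23). Of the 7 genes 0 were called, and the median difference was -0.56, with -1.33 at number 2 and 0.26 at number 3. It was -1.44 without KO 3, -0.18 without WT 3 and 0.70 without KO 2, and -0.19 with normexp background correction and -0.23 with the mean of a gene's probes.

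Lysosomal genes in general followed the members, over a narrower range. All 24 lysosome genes other than the members were lower in KO at number 2, 23 of them were higher at number 3, and 22 ran in the order KO 2, WT 2, WT 3, KO 3. The medians were -0.69 at number 2 and 0.34 at number 3, and 0 of 24 were called. The overall median of -0.16 became -1.02 when KO 3 was left out, 0.61 when KO 2 was and 0.03 when WT 3 was, and it was -0.29 with quantile normalization. Npc1, which moves cholesterol out of lysosomes, had the highest difference, 0.13 (SE 0.58), and Ctss, cathepsin S, the lowest, -0.70 (SE 1.19). Lipa, the acid lipase that splits swallowed cholesterol esters, was 1.05 lower on KO 2 than on WT 2, at 1.31 against 2.36, and 3.46 on KO 3 against 3.12 on WT 3. The transcription factors that drive lysosome genes were not alike: Mitf ran the other way, at 0.53 in WT 2, 0.13 in WT 3, 1.62 in KO 2 and 0.06 in KO 3. Tfeb lay within a 1.33-fold range over the arrays, and Tfec, the family member found in macrophages, had a difference of -1.08 (SE 1.06). Of these 4 factors 0 were called.

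Genes for the uptake of apoptotic cells and modified lipoproteins were mixed. Most encode receptors, but C1qa, C1qb, C1qc, Gas6, Mfge8 and Elmo1 on this list do not. Of 16 such genes 0 were called, 9 were lower at number 2 and higher at number 3, and the median difference was -0.32, with -0.75 at number 2 and 0.13 at number 3. Left without KO 3 it was -1.01, without WT 2 -0.68, without WT 3 0.0050 and without KO 2 0.54. Mertk, the receptor tyrosine kinase for engulfing dead cells, gave 0.05 in WT 2, 1.22 in WT 3, -0.69 in KO 2 and 1.22 in KO 3, while the scavenger receptor gene Msr1 differed by -1.65 at number 2 and 0.53 at number 3. Cd36, a fatty acid and oxidised lipoprotein receptor that cardiomyocytes and endothelium also make, ran the other way, at 3.78 in WT 2, 3.30 in WT 3, 4.87 in KO 2 and 3.18 in KO 3. Timd4, a receptor of resident macrophages, had the highest difference of the list, 2.26 (SE 1.60), though its WT 3 signal was near background, and Tyro3, a relative of Mertk, the lowest, -0.88 (SE 0.56).

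Among 16 other genes of lipid handling 0 were called and the median difference was 0.06, with 0.14 at number 2 and 0.10 at number 3, between -0.07 (without WT 2) and 0.14 (without KO 2) when an array was left out and -0.02 with quantile normalization. The list divided by gene rather than running together. Apoc2, an apolipoprotein encoded near Apoe, had the lowest difference, -0.60 (SE 1.74), and a 19.9-fold range, at 0.70 in WT 2, 2.63 in WT 3, -1.09 in KO 2 and 3.22 in KO 3. Abca1, the cholesterol exporter, was 1.10 lower on KO 2, at 0.91 against 2.02 on WT 2, and within 0.08 at number 3. Plin2, a lipid droplet coat protein, gave 3.94, 4.97, 3.71 and 5.74 on WT 2, WT 3, KO 2 and KO 3. Lpl, lipoprotein lipase, which heart muscle and fat also make, ran the other way, at 6.44, 5.35, 7.81 and 4.65 in the same order, and Mgll, monoglyceride lipase, had the highest difference, 0.81 (SE 0.61).

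The remaining genes of the lipid-associated state included Spp1, osteopontin, the one most like Gpnmb in size. Spp1 gave 3.95 in WT 2, 5.54 in WT 3, 1.06 in KO 2 and 6.73 in KO 3, a 51.0-fold range with -2.89 at number 2 and 1.19 at number 3. All 10 genes on this list were lower in KO at number 2 and higher at number 3 (27.2% of all tested probes), and 0 were called. Only 4 of the 10 ran in the order KO 2, WT 2, WT 3, KO 3 (18.2% of probes), and in the rest WT 3 lay below WT 2. The median difference of the 10 genes was -0.44, but -1.18 without KO 3, -0.12 without WT 3 and 0.53 without KO 2. With normexp it was -0.26 and with probes well above background on all 4 arrays -0.24. Cd9, a tetraspanin, had a narrow 1.75-fold range, Lgals1, galectin-1, the highest difference, 0.18 (SE 0.39), and Cst7, a cathepsin inhibitor, the lowest, -1.25 (SE 0.94), with KO 2 not well above background. Of the 8 osteoclast-type genes that keep company with Ctsk, 7 were tested and 0 called, with a median difference of -0.64, made up of -1.18 at number 2 and -0.09 at number 3. This median was -0.29 with normexp background correction, -1.40 without KO 3 and 0.16 without KO 2. Acp5, the tartrate-resistant acid phosphatase, gave -0.91 in WT 2, 0.22 in WT 3, -3.52 in KO 2 and 0.38 in KO 3. Ocstamp, a gene of osteoclast fusion, had the highest difference, -0.04 (SE 0.43), and Tnfsf11, the osteoclast-inducing cytokine RANKL, the lowest, -2.55 (SE 0.97), with KO 2 again not well above background. At an unadjusted p under 0.05 limma picked 0 genes of any of these pathway lists.

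The median of general leukocyte markers moved with that of the members, and the median of heart muscle markers moved against it. In a bulk sample, fewer cells of a type and less RNA per cell cannot be told apart. With each gene centred on its own mean, the median of the 9 members was -0.24 in WT 2, 0.65 in WT 3, -1.61 in KO 2 and 1.04 in KO 3. The 14 macrophage and leukocyte markers gave 0.14, 0.44, -1.39 and 0.81 on these arrays. All 14 were lower in KO at number 2 and higher at number 3 (27.2% of all tested probes). Of the 14, 9 ran in the order KO 2, WT 2, WT 3, KO 3 (18.2% of probes). Lyz2, Itgam, Aif1, Cd14 and Ccr2 did not, being lower on WT 3 than on WT 2. Ptprc, the pan-leukocyte antigen CD45, gave 2.53, 2.97, 0.72 and 3.25, and Adgre1, the pan-macrophage antigen, gave 3.73, 4.39, 2.28 and 4.73. The 12 cardiomyocyte markers gave centred medians of 0.64, -0.65, 1.67 and -1.55, and for all 12 KO lay above WT at number 2 and below it at number 3. The summed signal of the cardiomyocyte list, as a multiple of the 75th percentile, ranged from 880 to 1802 in WT and from 597 to 3474 in KO, and that of the macrophage and leukocyte list from 357 to 393 in WT and from 196 to 452 in KO. The part of leukocyte or muscle content in the members' values was not tested.

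Lists of other cell types did not all share this order. The 6 tested neutrophil genes, of 9, gave centred medians of 0.39, 0.80, -2.15 and 0.88 on WT 2, WT 3, KO 2 and KO 3, and the 10 fibroblast and matrix genes gave 0.20, 0.21, -0.73 and 0.20. The 7 MHC class II genes, by which macrophages and dendritic cells present antigen, gave 0.88, 0.25, -1.25 and 0.21, so WT 2 and not KO 3 was highest. The 7 resident macrophage markers gave -0.36, -0.66, 0.98 and 0.23, so by this median the KO pair exceeded the WT pair. Taken singly, 4 of the 7 genes were higher in KO without overlap, beside 2002 of all 15062 tested genes. For F13a1 and Lyve1 the genotypes overlapped. Mrc1 was lower in KO at each number, with differences of -0.68 at number 2 and -0.10 at number 3. A higher mean in KO held for 6 of the 7, beside 8295 of all 15062 tested genes, and the median difference of the 7 was 1.05. At number 2 this median was 1.34 and at number 3 it was 0.50. Dropping KO 2 left 0.52, and dropping KO 3 left 1.46. None of these genes was called by limma. At an unadjusted p under 0.05 it picked 2 of the 7 resident macrophage markers, Vsig4 and Folr2, against 1.45% of all tested probes. It picked 0 genes of the other lists of cell types. The 3 tested adipocyte markers, of 6, gave -0.70, -1.32, 3.09 and -0.65, so these markers were high on KO 2, where 8 of the 9 members were below WT 2. Adipoq, Plin1 and Lep were not tested, and Retn was well above background on 2 arrays only. The median difference of the list was 2.44, but 1.49 without the filter on dim probes and 0.48 without KO 2. The part of these lists in the members' values was not tested.

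**Figure D3:**
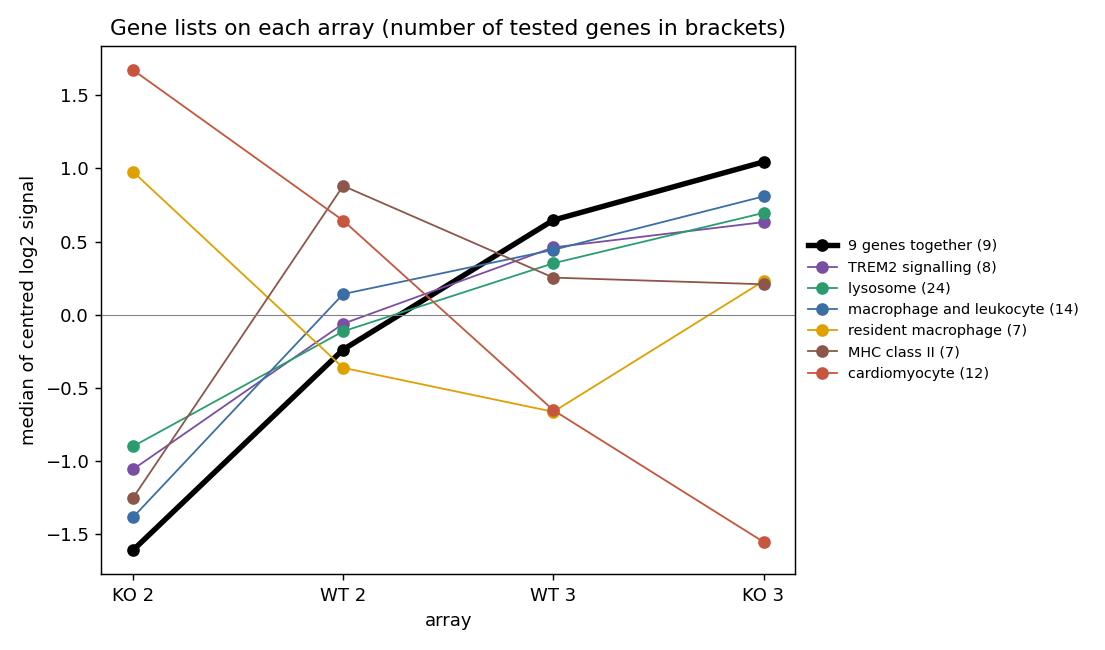
Median over each list of log2 signals centred on the gene's own mean (y), on the arrays ordered KO 2, WT 2, WT 3, KO 3 (x), with the number of tested genes in brackets. The 9 genes, the TREM2, lysosome and leukocyte lists all climb from left to right, the cardiomyocyte list descends from 1.67 to -1.55, and the resident macrophage and MHC class II lists do neither.

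The members were then expressed relative to the leukocyte markers, by subtracting on each array the median of the 14 markers. The difference between the numbers remained for some genes and not for others. Gpnmb then gave -1.83 in WT 2, 0.68 in WT 3, -2.74 in KO 2 and 1.23 in KO 3, Lgals3 gave 1.12, 2.09, 0.75 and 2.72, Trem2 gave 1.09, 1.96, 0.61 and 2.33, and Cd68 gave -1.45, -0.32, -1.44 and 0.05. For these 4 genes the number 3 array was still higher in both genotypes, by 0.87 to 2.51 in WT and by 1.49 to 3.98 in KO. For Apoe the gap was 0.33 in WT and 0.10 in KO, for Csf1r 0.57 and -0.21, and for Ctsk -0.17 and 0.14. Ctsd and Fabp5 turned below 0 in KO, at -0.96 and -0.48, against 0.16 and 1.20 in WT.

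Between genotypes the relative value took opposite signs at the 2 numbers for 4 members. KO minus WT was -0.91 at number 2 and 0.55 at number 3 for Gpnmb, -0.37 and 0.63 for Lgals3, -0.48 and 0.36 for Trem2, and 0.51 and -0.28 for Csf1r, so their means over both numbers, of -0.18, 0.13, -0.06 and 0.11, hide larger differences. Cd68 gave 0.01 and 0.37, Apoe -0.10 and -0.33, and Ctsk -0.75 and -0.45. Ctsd, at 1.21 and 0.09, and Fabp5, at 2.01 and 0.33, were higher in KO at both numbers, and mostly at number 2. There the subtracted marker median was 3.04 in WT 2 and 1.63 in KO 2, while Ctsd itself differed by -0.20 and Fabp5 by 0.60. The relative rise at number 2 thus came mostly from the markers. The median of the 9 members less the median of the markers was -0.10 in WT 2, 0.68 in WT 3, 0.40 in KO 2 and 1.23 in KO 3, a difference of 0.53. This value depends on which gene is the median on each array: it was 0.12 with the mean of all tested probes of a gene, 0.09 with each gene centred first, a setting added after the data were seen, and it ran from 0.12 without KO 3 to 0.94 without KO 2, with 0.14 without WT 2 and 0.92 without WT 3. With 2 arrays per group an exact two-sided permutation test of any such value cannot give a p under 0.333, so none is given.

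**Figure D4:**
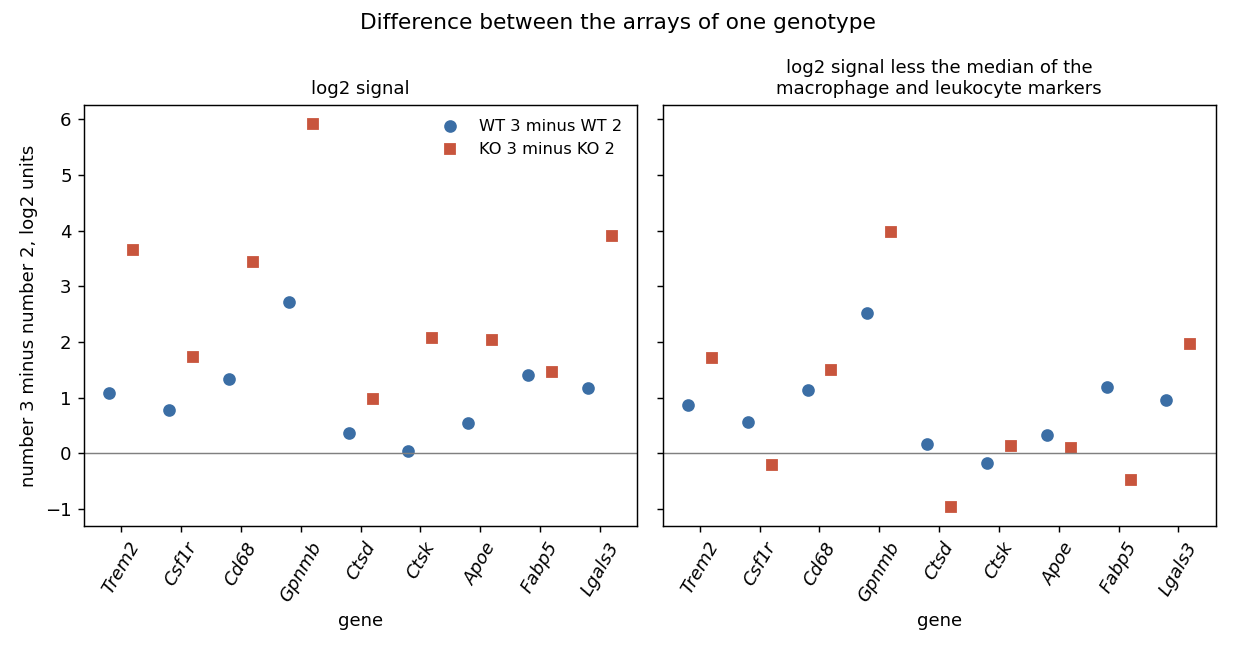
Number 3 minus number 2 in log2 units (y) for each of the 9 genes (x), in WT (circles) and KO (squares), before (left) and after (right) subtracting the median of the 14 macrophage and leukocyte markers of the same array. Trem2, Cd68, Gpnmb and Lgals3 keep gaps above 0.8 in both genotypes on the right, whereas Apoe and Ctsk lie close to 0.

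The genes whose profile over the 4 arrays was most like the members' median profile were sought among 15053 other tested genes, by the root mean square difference of centred log2 values. The 5 nearest were Fgd3 at 0.036, Bmper at 0.043, Apobec1 at 0.056, Lilrb4a at 0.059 and Cebpa at 0.069. Cebpa, also on the CSF1 axis list, encodes a myeloid transcription factor, Lilrb4a an inhibitory receptor of myeloid cells, and Bmper a secreted regulator of BMP signalling. The members themselves lay between 0.28 (Apoe) and 1.33 (Gpnmb) from their own median profile. With 4 arrays, many genes can come close to any one profile.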

How the data were processed

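The authors scanned 4 one-colour Agilent Whole Mouse Genome arrays and deposited the spot intensity values of Feature Extraction (version 10.7.3.1, grid on mm9), background-subtracted and detrended per the file headers. They also deposited log2 values made with GeneSpring, whose normalization is not given in the sources used here. These match quantile-normalized log2 intensity and served as an alternative.

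Groups came from the sample titles. Control and flagged spots (92 to 116 per array) were left out, spots of a probe averaged, and log2 processed signal shifted by the 75th percentile of each array (608 to 976). No spot was saturated, and 68.2% to 72.0% of probes were well above background. A probe was tested if either group had it well above background on both of its arrays, which left out 12868 dim probes and 2 with a missing value. KO was compared with WT in R 4.3.3 by limma 3.58.1 (lmFit, eBayes), and p-values were adjusted over all probes after Benjamini and Hochberg. The number of arrays limits the precision. Gene lists were described by counts and medians alone. The members and lists were chosen with earlier results of these data known. The named genes were the 9 members, a fixed set of partners, the highest and lowest difference of each pathway list, and 5 genes of like profile. Alternatives were normexp background correction (offset 50), quantile or median normalization, the authors' values, other filters, leaving out each array, a block for the array number, the mean of a gene's probes, and the methods' t-test.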

Additional observations from a re-analysis of the deposited data

Results flagged for a closer look

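For 6 genes KO was below WT at number 2 and above it at number 3, and the gap between these differences was 3.20 for Gpnmb, 2.74 for Lgals3, 2.58 for Trem2, 2.10 for Cd68, 0.95 for Csf1r and 0.61 for Ctsd, in log2 units. The gap was not tested, since each number holds 1 array per genotype. The dim Gpnmb probe, outside the tested set, gave a log2 signal of 4.56 on KO 3, where negative control spots averaged 2.02, and was not well above background on the other arrays. Xist, outside the comparisons, reached 14.13 (WT 2) and 13.24 (KO 2) in log2 signal, although all samples are labelled male.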

How the results depend on the processing

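Under the 8 settings that kept all 4 arrays, the median difference of the 9 genes stayed between -0.49 and -0.40, and 2 of 72 single differences changed sign, Ctsd at -0.17 with quantile normalization and -0.18 in the authors' values. Not all of these settings were separate checks. The other filters and the block for the array number could not change these values, and the authors' values nearly repeat quantile normalization. Leaving out 1 array changed the sign of 13 of 36. The members' median then ran from -2.07 (without KO 3) to 1.23 (without KO 2) and was 0.18 without WT 3, and the leukocyte markers' median ran from -1.64 to 0.50 between the same settings. The single ranges, from the setting without KO 3 to that without KO 2, were -2.43 to 1.23 for Trem2, -1.29 to 0.43 for Csf1r, -2.07 to 1.36 for Cd68, -3.68 to 2.24 for Gpnmb, -0.38 to 0.59 for Ctsd, -1.77 to 0.27 for Apoe, -0.10 to 1.36 for Fabp5, -2.36 to 1.54 for Lgals3 and -2.18 to -0.11 for Ctsk. The cause was not tested.

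Limma called 0 probes in every setting. The methods' t-test gave 88 probes over 2-fold at its unadjusted threshold, 0 of them members, and 0 after Benjamini-Hochberg adjustment. Without KO 3, 10 of 13 member probes, beside 7278 of all 28304, had an unadjusted p under 0.05 with limma, with a lone KO array assumed to vary like WT, and the lowest adjusted p was 0.128. Over all probes, 949 were over 2-fold apart, 209 with normexp (which moved the median of all probes from 0.02 to 0.13), 2110 without the filter, 472 when all 4 arrays had to be well above background, and 1087 to 5683 with an array left out. The shared numbers were not treated as pairs, since nothing in the labels ties them and there are only 2 (correlation of deviations 0.57). The sex-linked transcripts do split by number, so the standard errors and intervals given above include the gap between the numbers. The replicate block left every difference as it was and called 0 probes. It gave 602 probes at an unadjusted p under 0.05, 0 of them member probes, against 410 without the block.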
